A study of Mus musculus with 5 samples.

Results

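The methionine cycle and cysteine metabolism were followed in mouse liver tumours through 10 genes, taken by symbol from a deposited table of 22287 genes: Mat1a, Gnmt, Bhmt, Ahcy, Cbs, Cth, Pemt, Cdo1, Csad and Mat2a. All 10 were found, and all 10 passed the filter on low values, a mean of at least 1 FPKM over the 5 libraries. The tumours came from C57BL/6 mice given DEN, a liver carcinogen, together with CCl4, a liver toxicant, for 5 months, and every group shares this treatment. Of the 5 RNA sequencing libraries, 2 were wild type (WT 1 and WT 2) and 3 were lnc-CTHCC-/- (KO 1, KO 2 and KO 3), the knockout of a long non-coding RNA. The labels do not say how the knockout was made, nor whether each library is a different animal. P-values therefore speak of the spread among these 5 libraries, part of which may be technical, and the genotypes are taken as labelled, since the lnc-CTHCC transcript itself was not analysed here.

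In the methionine cycle, methionine is activated to S-adenosylmethionine, the methyl donor of the cell, whose use by methyltransferases leaves S-adenosylhomocysteine and then homocysteine. Homocysteine is either methylated back to methionine or passed down the transsulfuration route to cysteine, which the liver breaks down to sulfate or turns into taurine for bile salts. Hepatocytes carry most of this traffic, and a change from the adult isoenzyme gene Mat1a towards Mat2a is a known feature of dedifferentiating liver and of liver cancer.

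Before the values, sequence from RefSeq (build GRCm38.p6) shows how the start regions of these genes differ. Entries were found for 7 of the 10 genes, with 9 start sites in all, and the 250 bases before each start were searched on both strands for TATAAA (the TATA box), CCAAT (the CCAAT box) and ATTGAT, a core found in sites of Onecut1, the 1 gene past the threshold in the comparison of all genes. The sequences of 4 genes are shown because the results below turn on their contrast. Gnmt and Bhmt varied widely between the WT libraries, while Mat2a was steady between them. Cbs was the gene whose genotypes did not overlap. Among the KO libraries Mat2a varied about as much as Gnmt, the highest over the lowest being 1.64 and 1.63. All 4 lie on the minus strand and are printed 5′ to 3′ along the gene, ending at the base before the start, with capitals for any of the 3 motifs.
Gnmt, chr17:46729166-46729415: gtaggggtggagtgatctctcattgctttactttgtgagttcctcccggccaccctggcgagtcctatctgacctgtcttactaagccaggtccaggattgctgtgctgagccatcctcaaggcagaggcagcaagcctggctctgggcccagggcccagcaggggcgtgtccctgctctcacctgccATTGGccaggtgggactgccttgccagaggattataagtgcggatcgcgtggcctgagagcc
Bhmt, chr13:93637759-93638008: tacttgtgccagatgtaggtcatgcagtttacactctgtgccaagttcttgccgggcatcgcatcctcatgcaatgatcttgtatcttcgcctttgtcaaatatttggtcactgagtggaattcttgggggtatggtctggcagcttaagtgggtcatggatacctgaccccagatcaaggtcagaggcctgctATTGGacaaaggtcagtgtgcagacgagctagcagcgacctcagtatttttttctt
Cbs, chr17:31637206-31637455: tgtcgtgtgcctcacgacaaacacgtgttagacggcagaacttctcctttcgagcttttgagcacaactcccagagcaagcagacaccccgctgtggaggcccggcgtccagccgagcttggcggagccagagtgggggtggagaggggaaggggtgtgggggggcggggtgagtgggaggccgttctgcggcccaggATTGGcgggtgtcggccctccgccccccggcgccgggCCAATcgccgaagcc
Mat2a, chr6:72439557-72439806: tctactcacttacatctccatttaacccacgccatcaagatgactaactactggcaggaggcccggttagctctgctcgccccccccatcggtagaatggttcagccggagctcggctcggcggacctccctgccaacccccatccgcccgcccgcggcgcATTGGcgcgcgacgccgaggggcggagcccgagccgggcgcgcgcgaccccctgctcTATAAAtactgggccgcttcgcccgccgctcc

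A CCAAT match, as ATTGG on the gene's strand, began at base -62 of Gnmt, -56 of Bhmt, -52 of Cbs and -89 of Mat2a, counted back from the start site. Cbs had a further match in the forward direction at -15. These start sites are those of RefSeq. By the GENCODE coordinates given below, the Bhmt gene begins at 93637961 and Cbs at 31637238, further upstream. The -56 match of Bhmt and the -15 match of Cbs therefore lie inside those gene bounds. Across the 9 start regions, 7 held CCAAT, a pentamer found in 33.8% of the 32851 start regions of the table. TATAAA was found in Mat2a alone of the 7 genes (at -32, against 12.4% of all start regions). ATTGAT was found in 1 of the 9, a Pemt start (chr11:60037006-60037255, as ATCAAT at -75), against 6.72% of all. This and the other Pemt region lie wholly inside the GENCODE gene, which begins at 60046489. The Csad region at 102189044-102189293 likewise lies inside its gene, which begins at 102204724. The Mat2a and Cbs regions were rich in CpG dinucleotides, with 29 and 21 in 250 bases, where the median of all start regions was 6. Gnmt had 6 and Bhmt 5. Of the starts not shown, Ahcy had 9, above that median, and Pemt (2 and 1) and Csad (4 and 5) lay below it. In those genes WT 2 exceeded WT 1 by ratios of only 1.71, 1.53 and 1.65. A relation of CpG number to spread between libraries was not tested. A match describes letters in a window and says nothing of binding.

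Levels are given in FPKM, which corrects fragment numbers for gene length and for library size, so they can be set side by side between genes. Mat1a and Cdo1 were the most abundant of the 10, ranking 110 and 130 by mean level among 10132 genes tested, and Csad the least, at rank 3664. Cdo1 led in WT 1, KO 1 and KO 2, and Mat1a in WT 2 and KO 3. Ahcy and Gnmt, at ranks 226 and 228, did not differ beyond their spread, nor did Pemt and Cbs, at ranks 651 and 688. Together the 10 genes took 0.184% of the FPKM sum in WT 1, 0.443% in WT 2, 0.242% in KO 1, 0.243% in KO 2 and 0.310% in KO 3. The WT libraries therefore enclosed the KO libraries. The means were 0.314% ± 0.183 (SD, n = 2) in WT and 0.265% ± 0.0393 (SD, n = 3) in KO, a difference of -0.0487 percentage points (exact permutation test over libraries, two-sided p = 0.8). With 2 against 3 libraries, 10 splits are possible, so the smallest two-sided p is 0.1.

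**Figure D1:**
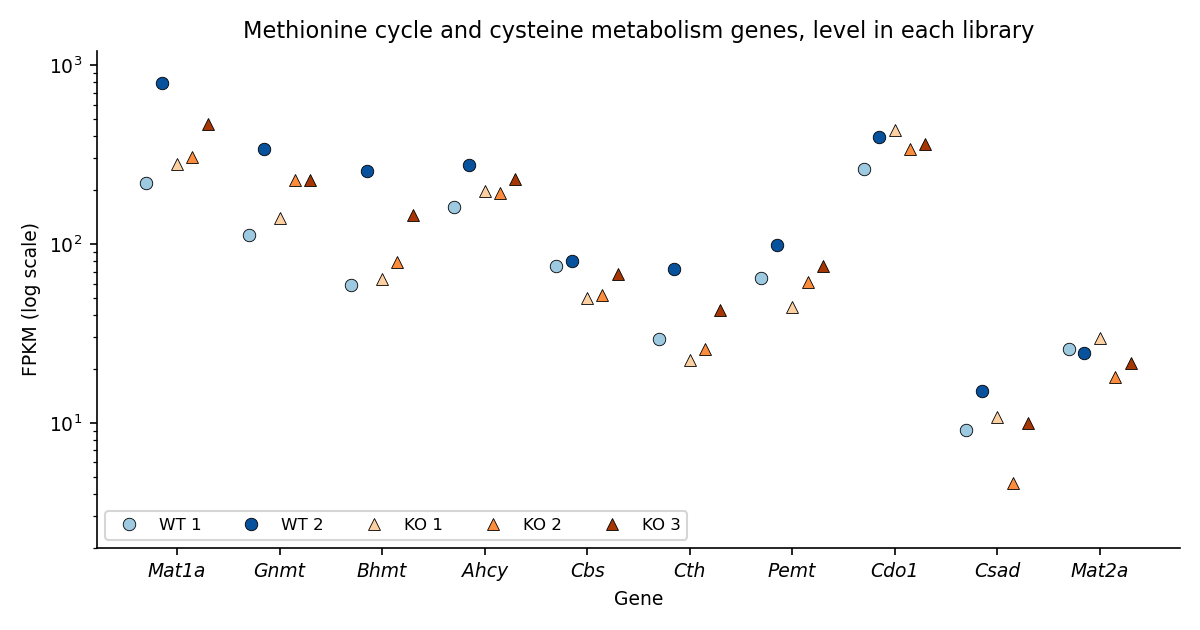
FPKM of the 10 genes (log axis) in each library, with circles for WT and triangles for KO. WT 2 is the highest library in 8 genes, and in Cbs both WT circles lie above all 3 KO triangles.

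None of the 10 genes passed the test between genotypes, which across all genes tested called 0.00987% (1 of 10132 genes at a limma adjusted p under 0.05). By limma their adjusted p was 0.999 for each. The mean log2(FPKM + 1) was lower in KO for 9 of the 10 genes and higher for Cdo1, with a median KO minus WT difference of -0.36 on that scale, beside 0.05 over all genes tested. These 9 of 10 rest in part on WT 2: without that library 5 of the 10 were lower and the median was 0.17, beside 0.16 for all genes tested. At an unadjusted p under 0.05, 1 of the 10 genes was reached, Cbs, where 3.23% of all genes tested reached it in either direction and 1.45% as lower.

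**Figure D2:**
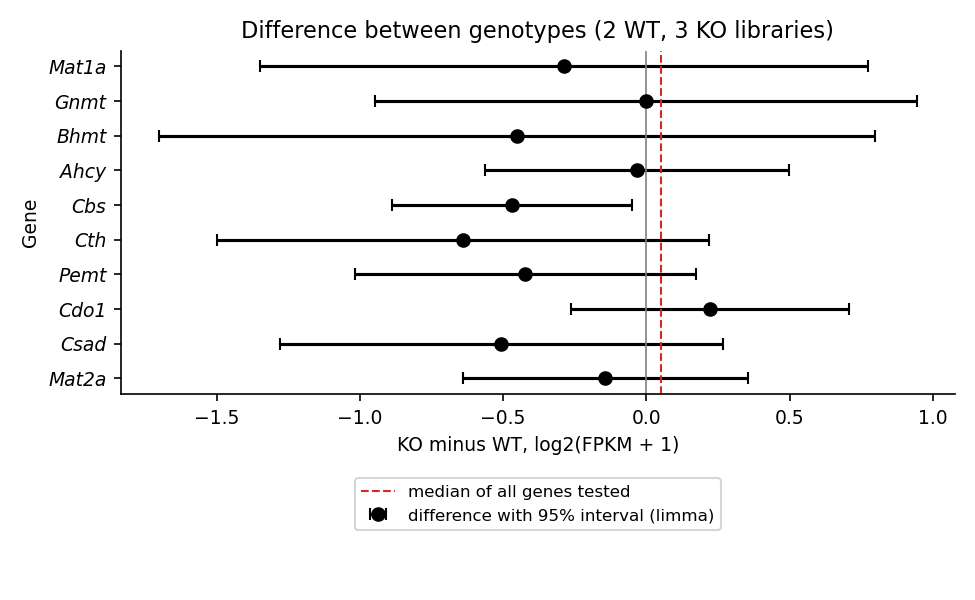
Difference of KO minus WT in log2(FPKM + 1) for each gene, with the 95% interval from limma; the dashed line is the median of all genes tested, 0.05. The interval of Cbs, from -0.89 to -0.05, is the 1 that leaves out 0.

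Methionine is activated by methionine adenosyltransferase, whose catalytic subunit is encoded by Mat1a (ENSMUSG00000037798, chromosome 14, 41105035 to 41124412, plus strand) in adult hepatocytes. Mat1a was at 219 FPKM in WT 1, 797 in WT 2, 280 in KO 1, 306 in KO 2 and 467 in KO 3. All 3 KO libraries lay between the WT libraries. The log2 difference was -0.29 (SE 0.466, 95% interval -1.35 to 0.77, limma adjusted p = 0.999), and it was -1.22 without WT 1 and 0.64 without WT 2.

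Mat2a (ENSMUSG00000053907, chromosome 6, 72432799 to 72439558, minus strand) encodes the catalytic subunit used outside the liver and in dividing cells. Its level was 25.7 FPKM in WT 1, 24.7 in WT 2, 29.7 in KO 1, 18.1 in KO 2 and 21.7 in KO 3. The WT libraries were close to each other and lay inside the KO range, with a log2 difference of -0.14 (95% interval -0.64 to 0.35, limma adjusted p = 0.999).

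Mat1a stood above Mat2a in every library, by a ratio of 8.53 in WT 1, 32.3 in WT 2, 9.45 in KO 1, 16.9 in KO 2 and 21.6 in KO 3. The ratio thus varied more between the WT libraries than between genotypes. On the log2 scale it was 4.05 ± 1.36 (SD, n = 2) in WT and 3.92 ± 0.611 (SD, n = 3) in KO, a difference of -0.14 (exact permutation test, two-sided p = 1). That difference was -1.10 without WT 1, 0.82 without WT 2, 0.20 without KO 1, -0.22 without KO 2 and -0.39 without KO 3. The 2 genes are paralogs, and how reads shared by similar genes were counted is a detail not given in the sources used here.

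Methyl groups of S-adenosylmethionine are spent by methyltransferases, of which Gnmt and Pemt are major ones of liver. Gnmt (ENSMUSG00000002769, chromosome 17, 46725664 to 46729168, minus strand), glycine N-methyltransferase, takes up excess S-adenosylmethionine by making sarcosine. It was at 112 FPKM in WT 1, 337 in WT 2, 140 in KO 1, 229 in KO 2 and 227 in KO 3, so the WT values again enclosed those of KO. Its log2 difference was -0.0026 (95% interval -0.95 to 0.94), which turned to 0.79 without WT 2 and was -0.79 without WT 1. Under both rescalings to a common FPKM sum it was just above 0, at 0.02.

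Pemt (ENSMUSG00000000301, chromosome 11, 59970614 to 60046489, minus strand), which makes phosphatidylcholine by methylating phosphatidylethanolamine, was at 64.2 FPKM in WT 1, 98.1 in WT 2, 44.1 in KO 1, 61.5 in KO 2 and 75.4 in KO 3. KO 1 and KO 2 lay below both WT libraries, and KO 3 lay between them. The log2 difference of -0.42 (SE 0.262, 95% interval -1.02 to 0.17) did not pass (limma adjusted p = 0.999). It was -0.73 without WT 1, -0.12 without WT 2 and -0.22 without KO 1.

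S-adenosylhomocysteine, the product of these reactions and an inhibitor of them, is cleaved by the enzyme of Ahcy (ENSMUSG00000027597, chromosome 2, 155059310 to 155074497, minus strand). Ahcy was at 162 FPKM in WT 1, 276 in WT 2, 197 in KO 1, 193 in KO 2 and 231 in KO 3. The KO libraries lay within the WT range, and the log2 difference was -0.03 (95% interval -0.56 to 0.50), with -0.42 without WT 1 and 0.35 without WT 2. Opposite-strand transcripts overlap Ahcy (Gm45609), Gnmt (Gm26904) and Mat2a (Particl) in the annotation, so their reads may be mixed if strand was not used.

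Bhmt (ENSMUSG00000074768, chromosome 13, 93616675 to 93637961, minus strand) encodes the betaine-dependent enzyme that turns homocysteine back to methionine. It was at 59.3 FPKM in WT 1, 256 in WT 2, 63.8 in KO 1, 78.9 in KO 2 and 145 in KO 3. WT 1 was the lowest library and WT 2 the highest, a ratio of 4.32 between them, the widest of the 10 genes. The log2 difference of -0.45 had the widest interval too (-1.70 to 0.80), and it was -1.50 without WT 1 and 0.60 without WT 2. Bhmt has a paralog, Bhmt2, on the same chromosome, and an antisense transcript (Gm15622) overlaps it in the annotation, with the strand setting of the counting not given in the sources used here.

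Homocysteine enters transsulfuration through Cbs (ENSMUSG00000024039, chromosome 17, 31608894 to 31637238, minus strand), cystathionine beta-synthase, which joins it to serine. Cbs was at 75.4 FPKM in WT 1, 80.3 in WT 2, 49.9 in KO 1, 51.9 in KO 2 and 67.5 in KO 3. Every KO library lay below both WT libraries, a lack of overlap in this direction seen in 5.29% of all genes tested (and in 9.78% in the other direction), and Cbs was the only one of the 10 genes with either. WT was at 77.9 ± 3.47 FPKM (SD, n = 2) and KO at 56.4 ± 9.65 FPKM (SD, n = 3), a ratio of 0.725. Its log2 difference was -0.47 (SE 0.184, 95% interval -0.89 to -0.05), with an unadjusted p of 0.0318 and a limma adjusted p = 0.999. The difference lay between -0.60 and -0.39 with any 1 library left out. In the authors' deposited table Cbs is the 1 of the 10 genes with a p-value under 0.05 (0.0364), against 2.78% of all genes listed. Its false discovery rate in the authors' deposited table is 0.999862, and none of the 10 has a rate under 0.05, which 0.162% of all genes have.

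Cth (ENSMUSG00000028179, chromosome 3, 157894248 to 157925077, minus strand), cystathionine gamma-lyase, releases cysteine from cystathionine. It was at 29.5 FPKM in WT 1, 72.0 in WT 2, 22.6 in KO 1, 25.8 in KO 2 and 42.9 in KO 3. KO 1 and KO 2 lay below both WT libraries, while KO 3 lay above WT 1. Its log2 difference of -0.64 was the lowest of the 10 genes but did not pass (SE 0.378, 95% interval -1.50 to 0.22, limma adjusted p = 0.999), and it was -1.27 without WT 1 and -0.0098 without WT 2. A transcript of unsettled status on the same strand (Gm43314) overlaps Cth in the annotation.

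Cdo1, cysteine dioxygenase, oxidises cysteine to cysteine sulfinate and is the gate to taurine. It was at 263 FPKM in WT 1, 393 in WT 2, 433 in KO 1, 338 in KO 2 and 360 in KO 3. KO 1 was the highest library and WT 1 the lowest, and the other libraries lay close together. Its log2 difference was 0.22 (95% interval -0.26 to 0.71), the only positive one of the 10, and -0.07 without WT 1.

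Csad (ENSMUSG00000023044, chromosome 15, 102176999 to 102204724, minus strand), cysteine sulfinic acid decarboxylase, makes hypotaurine, the precursor of taurine. It was at 9.13 FPKM in WT 1, 15.1 in WT 2, 10.8 in KO 1, 4.62 in KO 2 and 9.93 in KO 3. KO 2 was the lowest library, and KO 1 and KO 3 lay within the WT range. The log2 difference of -0.51 (95% interval -1.28 to 0.27) did not pass, and it was -0.17 without WT 2, -0.17 without KO 2 and -0.84 without WT 1. The protein-coding gene Zfp740 overlaps Csad on the other strand in the annotation.

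The spread of these genes between libraries of a genotype was wide. Between the WT libraries, Mat1a, Gnmt, Bhmt and Cth differed at least 2-fold, 4 of the 10 genes, against 10.2% of all genes tested. The median WT 2 minus WT 1 difference was 0.72 on the log2(FPKM + 1) scale for the 10 genes and 0.23 for all genes tested. Single differences were 2.09 for Bhmt, 1.86 for Mat1a, 1.58 for Gnmt and 1.26 for Cth, each above that of at least 98.4% of genes tested. At the other end stood Cbs at 0.09 and Mat2a at -0.06. WT 2 was the highest of the 5 libraries in 8 of the 10 genes, against 35.2% of genes tested, and all KO libraries lay between the WT libraries in 4 of the 10, against 22.7%.

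Within KO, the highest library exceeded the lowest by a median of 0.72 on the log2(FPKM + 1) scale over the 10 genes and by 0.31 over all genes tested. KO 3 was the highest KO library in 6 of the 10 genes (Mat1a, Bhmt, Ahcy, Cbs, Cth and Pemt), against 21.4% of genes tested. These shares were computed after the values had been seen and describe 5 libraries.

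**Figure D3:**
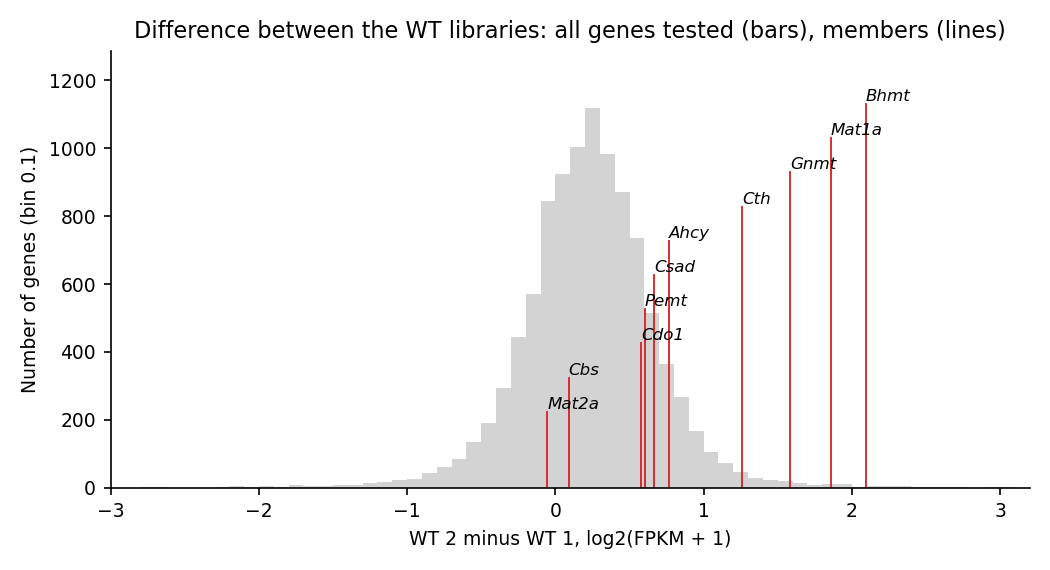
Number of genes (vertical axis, all genes tested) by their WT 2 minus WT 1 difference in log2(FPKM + 1), with a red line for each of the 10 genes; line heights serve the labels only. Bhmt, Mat1a, Gnmt and Cth lie in the upper tail, between 1.26 and 2.09, while Cbs and Mat2a lie near 0.

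**Figure D4:**
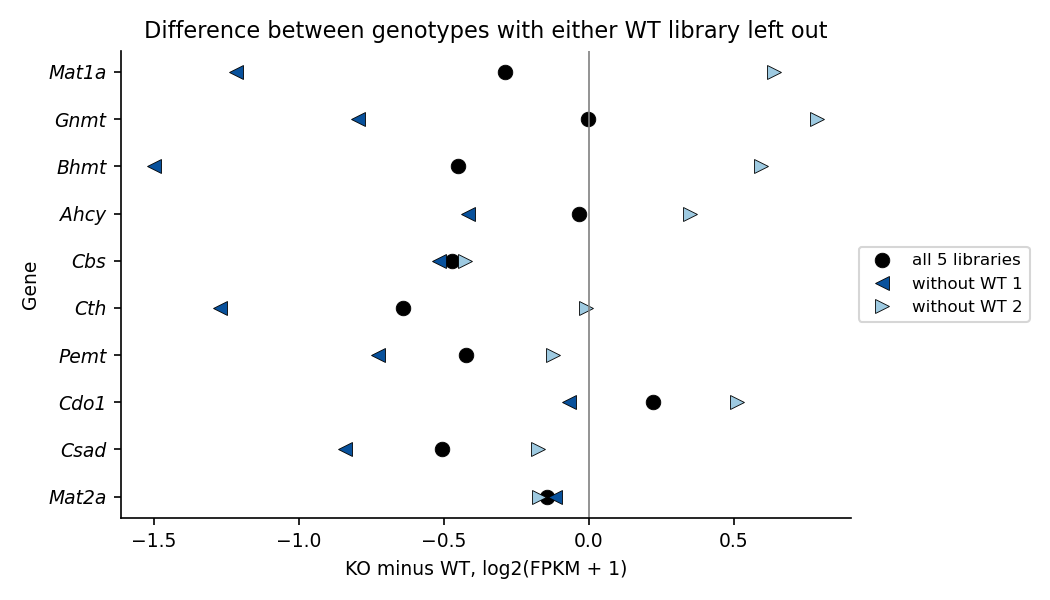
KO minus WT difference in log2(FPKM + 1) with all 5 libraries and with WT 1 or WT 2 left out. Mat1a, Gnmt, Bhmt and Ahcy lie on the other side of 0 without WT 2, and Cdo1 without WT 1, while Cbs moves little (-0.51 without WT 1 and -0.43 without WT 2).

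The libraries also differed in other respects. FPKM sums lay between 526229 and 552619 per library, the depth is unknown, and Alb, the gene of albumin, took 17.1% of the sum in WT 1 and 14.1% to 15.6% in the others. The label of liver tissue was checked on hepatocyte genes: 9 of 10 were in the table, none was at 0, and they summed to 122496 FPKM in WT 1, 94776 in WT 2 and 105267 to 106324 in KO. That sum is mostly Alb (94258 FPKM in WT 1 and 74739 in WT 2) and Apoa1 (19107 and 11655). The hepatocyte genes did not move as a block between the WT libraries. WT 2 was the highest library in 3 of the 9, near the share over all genes tested, 35.2%. These were Cps1 (278 and 563 FPKM in WT 1 and WT 2), Ass1 (421 and 738) and Fgb (1237 and 1449).

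Markers of other cell types varied between libraries too. None of those that passed the filter on low values was called. That filter was reached by 4 of 5 cholangiocyte, 3 of 6 B and plasma cell and 2 of 5 neutrophil markers, by 0 of 6 T and NK cell and 0 of 5 pancreatic markers, and by every marker of the other types. Cholangiocyte markers (5 of 5 above 0) summed to 150 and 423 FPKM in WT 1 and WT 2 and to 154 to 348 in KO. B and plasma cell markers (6 of 6) summed to 172 and 488 FPKM in WT 1 and WT 2 and to 37.5 to 131 in KO. Stellate cell and fibroblast markers (8 of 8) summed to 83.8 and 115 FPKM in WT and 97.9 to 147 in KO, macrophage markers (7 of 7) to 56.8 and 77.1 in WT and 50.7 to 95.2 in KO, and endothelial markers (6 of 6) to 52.3 and 46.8 in WT and 49.6 to 79.5 in KO. Erythroid markers (4 of 4) summed to 533 and 264 FPKM in WT and 340 to 568 in KO. That sum is mostly Hba-a1, Hbb-bs and Hbb-bt, each lower in WT 2 than in WT 1. Alas2 went the other way, at 9.77 FPKM in WT 1, 29.7 in WT 2 and 8.55 to 8.76 in KO. T and NK cell markers (6 of 6) were low, summing to 5.38 and 2.71 FPKM in WT and 1.06 to 2.84 in KO. Neutrophil markers (5 of 5) summed to 6.17 and 5.75 FPKM in WT and 4.75 to 7.0 in KO. Pancreatic markers were at or near 0, with Prss2 and Pnlip at 0 in every library. The part of these differences in the enzyme values was not tested, and in bulk tissue fewer cells of a type and less RNA per cell cannot be told apart.

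The rest of the pathway was read from 50 other genes in 5 lists, of which 46 passed the expression filter. None passed the test in either direction. The KO mean was the higher for 15 and the lower for 31, and the median log2 difference was -0.09, beside 0.05 for all genes tested, of which 3912 of 10132 were lower. All KO libraries lay below WT in 4 of the 46 genes and above it in 2, where 5.29% and 9.78% of all genes tested did. WT 2 was the highest library in 26 of the 46, against 35.2% of all genes tested. In the list of the methionine cycle and methyl group use, 9 of 11 genes were tested, 6 higher and 3 lower (median 0.15, and -0.10 without WT 1), with WT 2 highest in 5. Mtr, the folate-dependent methionine synthase, was under the filter, with means of 0.770 FPKM in WT and 0.793 FPKM in KO. Mtr was thus far lower per length than Bhmt, another gene of homocysteine methylation, in every library.

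Nnmt, which methylates nicotinamide, varied most of these genes. It was at 5.98 FPKM in WT 1, 56.7 in WT 2, 4.75 in KO 1, 5.27 in KO 2 and 14.6 in KO 3. WT 2 stood far above the rest and KO 3 was next, the top order also seen in Mat1a and Bhmt. The log2 difference of -1.28 (SE 0.769, limma adjusted p = 0.999) turned to 0.24 without WT 2. Bhmt2, a methyltransferase akin to Bhmt, was at 26.0 and 36.3 FPKM in WT 1 and WT 2 and at 17.7, 28.1 and 29.0 in KO 1, KO 2 and KO 3, and its log2 difference was -0.33 (limma adjusted p = 0.999). The WT ratio was 1.40, where that of Bhmt was 4.32.

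Mat2b, the regulatory subunit that partners the Mat2a product, stood at 8.42 (WT 1), 11.4 (WT 2), 11.5 (KO 1), 12.4 (KO 2) and 12.0 FPKM (KO 3). It was 1 of the 2 listed genes with every KO library above WT, by a narrow margin over WT 2. Gamt, which methylates guanidinoacetate to creatine, had means of 132 FPKM in WT and 155 in KO, and Ahcyl1, a relative of Ahcy, means of 13.5 and 15.6.

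Choline oxidation supplies the betaine that Bhmt uses, and its later steps feed folate with methyl-derived carbon units. In this list 13 of 14 genes were tested, 1 higher and 12 lower in KO (median -0.09). Without WT 2, the highest library in 11 of the 13, that median was 0.07, and without KO 1 it was -0.0089. Chdh, which oxidises choline, was at 18.8 and 21.3 FPKM in WT, against 17.7, 18.6 and 16.1 in KO, so that it was 1 of the 4 listed genes with every KO library below WT. Dmgdh, which demethylates dimethylglycine, the by-product of Bhmt, had means of 34.0 FPKM in WT and 26.8 in KO, with WT 2 at 46.3 and WT 1 at 21.7. Sardh, the sarcosine dehydrogenase that acts on the product of Gnmt, was level, at 73.0 and 70.8 FPKM. The folate enzymes Shmt1 (37.3 and 34.5 FPKM) and Mthfd1 (40.0 and 39.0 FPKM) were close between genotypes as well.

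For cysteine breakdown, sulfide and taurine, all 10 genes were tested, 2 higher and 8 lower (median -0.15). WT 2 was the highest library in 7 of the 10, and without it the median was 0.02. Mpst, which makes sulfide by way of mercaptopyruvate, had means of 34.4 FPKM in WT and 32.4 in KO. Sqor, the mitochondrial sulfide oxidase, was at 113 and 114 FPKM in WT, against 89.0, 109 and 109 in KO, another of those 4 genes. Suox, which oxidises sulfite to sulfate, had means of 8.30 and 6.40 FPKM. Ado, a thiol dioxygenase that makes hypotaurine from cysteamine, had means of 3.01 and 3.58 FPKM, far under Cdo1. Baat, which joins bile acids to taurine or glycine, was at 12.5 FPKM in WT 1, 38.9 in WT 2, 16.0 in KO 1, 19.1 in KO 2 and 27.7 in KO 3. Like Mat1a, it was lowest in WT 1 and highest in WT 2. The taurine transporter gene Slc6a6 was level, at 20.3 and 20.8 FPKM.

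Glutathione synthesis uses cysteine, and 5 of its 6 listed genes were tested, 2 higher and 3 lower (median -0.0024). Gclc and Gclm, the catalytic and modifier subunits of glutamate-cysteine ligase, had means of 107 and 64.6 FPKM in WT and 101 and 60.6 in KO. Gss, glutathione synthetase, had means of 50.8 and 54.8 FPKM. Slc7a11, the cystine transporter, was low and uneven, with 2.16 and 3.16 FPKM in WT, 2.21 and 6.35 in KO 1 and KO 2, and 1.01 in KO 3. WT 2 was the highest library in 0 of the 5, and 0 differed 2-fold between the WT libraries, where 35.2% and 10.2% of all genes tested did. The median lay between -0.17 and 0.08 with 1 library left out. The list of methionine salvage and polyamines had 9 of 9 genes tested, 4 higher and 5 lower (median -0.11, and 0.05 without WT 2), with WT 2 highest in 3 and Odc1, ornithine decarboxylase, at means of 36.3 and 31.6 FPKM.

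**Figure D5:**
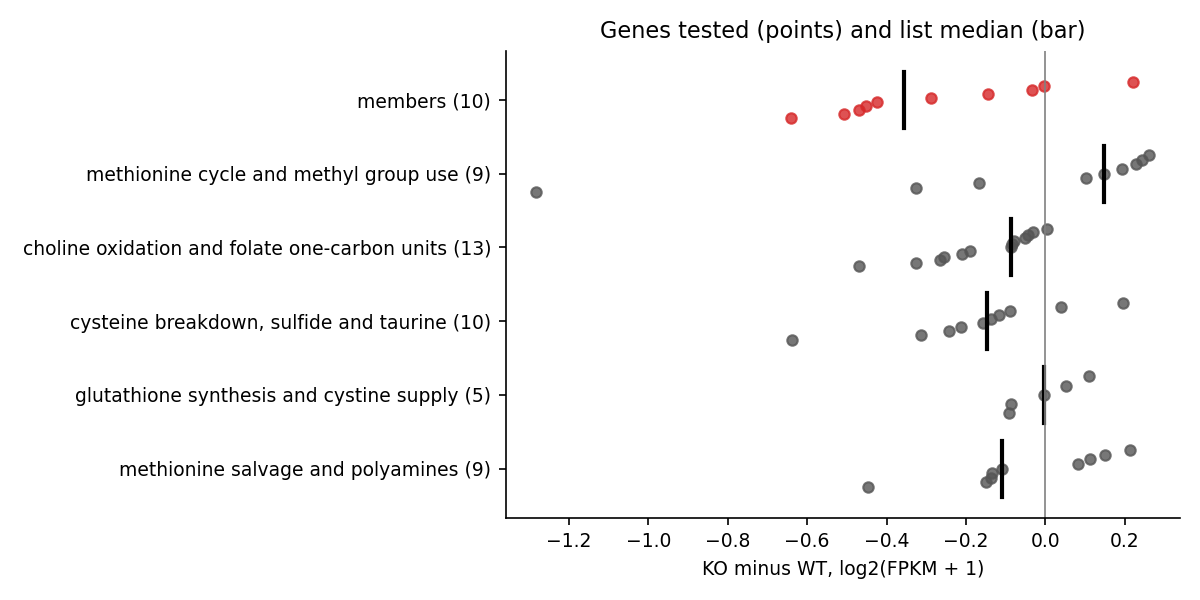
KO minus WT difference in log2(FPKM + 1) for each gene tested (points), with the number of genes in parentheses and the list median as a bar. The 10 genes described here (red) have a median of -0.36, and the point at -1.28 is Nnmt.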

How the data were processed

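Total RNA was taken up in Trizol and made into libraries by standard Illumina methods, per the labels' protocols. Per the submitters' processing notes, the tools include HISAT2, StringTie, bcl2fastq 2.0, limma and DESeq2, with no role stated, and the build is mm10. The deposited values are FPKM per library made by the authors, rounded to 2 decimals, with no library totals, so depth is unknown and no count model was used. Beside them stand the authors' group means, the authors' log2 fold change (KO over WT) and the false discovery rate and p-value of the authors, per the file headers, from a tool not given in the sources used here.

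Groups came from sample titles. The genotypes were compared with limma 3.58.1 (R 4.3.3) on log2(FPKM + 1), with empirical Bayes and a mean-variance trend, two-sided and without covariates, over the 10132 genes with a mean of at least 1 FPKM. This scale understates changes of low genes. Benjamini-Hochberg adjustment ran over all genes tested, with a threshold of 0.05. The script was tested on simulated data. Members and lists were chosen with earlier results of these data known; the 10 members and 23 of the listed pathway genes were to be named whatever their values, of which 1 is not reported here. Coordinates come from GENCODE vM21 (GRCm38, the assembly of mm10) by Ensembl identifier, 1-based. Alternatives were other pseudocounts, filters, scalings and variance settings, the replicate number as a block, and each library left out. Figures were drawn with matplotlib 3.10.9.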

Additional observations from a re-analysis of the deposited data

How the results depend on the processing

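None of the 10 genes was called in any of the 16 alternatives, and of their 160 single differences 149 kept their sign and 11 turned. Settings that change only the expression filter or the variance step leave a log2 difference as it is, so they could not turn any. Apart from Gnmt under both rescalings to a common FPKM sum, every turn came with a library left out. The count of called genes among all tested, 1 in the main setting, was 0 without an expression filter, with one of at least 5 FPKM, with a pseudocount of 5, both rescalings to a common FPKM sum (with and without Alb), median-ratio rescaling or quantile normalization, 3 with robust empirical Bayes, and 0 to 17 with 1 library left out. With the replicate number as a block it was 62 (19 higher, 43 lower), and 1 of the pathway genes, Nnmt, was called (log2 difference -1.74, limma adjusted p = 3.11e-05); in the other 15 alternatives no pathway gene was. That fit leaves 1 residual degree of freedom. Replicate 3 exists only in KO, so KO 3 adds nothing to its differences, and that of Nnmt was also -1.74 without KO 3. Its p-values rest on a variance pooled over all genes tested (total degrees of freedom 10132), not on the spread of Nnmt itself. The labels do not say that a number marks a shared source, and the deviations of same-numbered libraries correlated across genes at 0.09 and -0.24, so the numbers were not taken as pairs. With 1 library left out, the median of the 10 genes ranged from -0.76 to 0.17, the only positive value being that without WT 2, and with the block it was -0.55. The ranges of single genes were -1.22 to 0.64 for Mat1a, -0.79 to 0.79 for Gnmt, -1.50 to 0.60 for Bhmt, -0.42 to 0.35 for Ahcy, -0.0684 to 0.51 for Cdo1, -0.33 to 0.0109 for Mat2a and -2.81 to 0.24 for Nnmt, while Cbs (-0.60 to -0.39), Cth (-1.27 to -0.0098), Pemt (-0.73 to -0.12) and Csad (-0.84 to -0.17) stayed below 0. Gnmt, at -0.0026 in the main setting, was 0.023 and 0.017 after rescaling to a common sum with and without Alb. The log2 ratio of Mat1a to Mat2a differed by -1.10 to 0.82, and the summed share by -0.178 to 0.0807 percentage points. The causes of these shifts were not tested. Only 2 WT libraries and an unknown depth limit all of these values.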
